A study of Mus musculus with 8 samples.

Results

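The HCN channels and the transcription factors that set up the sinus node were examined in RNA sequencing of fetal hearts that lack the type 3 deiodinase (DIO3), the enzyme that inactivates thyroid hormone. The 6 genes *Hcn2*, *Hcn3*, *Hcn4*, *Shox2*, *Isl1* and *Tbx3* were taken by name from the 26590 gene symbols of the deposited table, where they had 11 of the 51414 transcript rows. For each gene the row with the highest average of both genotype means was used, and the other rows were checked against it. Whole hearts came from 4 *Dio3*+/+ and 4 *Dio3*-/- fetuses, each from an individual mouse, on a C57BL/6J background with the *Dio3* gene inactivated in the germline of the *Dio3*-/- animals. The titles place all 8 hearts at E13.5. For *Dio3*-/- hearts 3 and 4, however, the age field reads E18.5, and the methods name a slightly later day than the titles. The table gives, for each genotype, the authors' mean in RPKM (reads scaled by the length of the transcript and by the number of mapped reads) and the coefficient of variation (CV, the SD divided by the mean) over its 4 hearts, and no value for a single heart. With 4 values, however, a mean and a CV fix limits for each heart. No heart can lie more than 1.5 SD from the mean, and at least 1 heart must lie 0.5 SD or more above it. These limits are given in place of single values.

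Each beat of the heart starts in the sinus node, a small group of cells at the junction of the superior caval vein and the right atrium. HCN channels open when the membrane becomes more negative, pass an inward current of sodium and potassium (the funny current), and open more readily when cAMP binds to them. *Hcn4* encodes the main HCN channel of the node, *Hcn2* contributes to the current, and *Hcn3* is expressed at low levels in heart muscle. *Shox2* and *Isl1* encode homeodomain factors that are required for pacemaker cells, and *Tbx3* encodes a T-box repressor that keeps genes of working muscle off in the node and in the atrioventricular conduction system. Thyroid hormone is known to speed up the heart, and *Hcn2* and *Hcn4* are known to respond to it in adult heart muscle.

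Only uniquely mapping reads were counted, so the likeness of the HCN genes bears on whether their rows can be told apart. The stretch that encodes the channel pore is shown for the 3 genes from GENCODE transcripts (GRCm38, strand of the gene, 42 bases each). Capitals mark the codons of the glycine, tyrosine and glycine of the selectivity filter. The stretch lies in coding exon 4 of each gene, at chr10:79728935-79728976 (plus strand) in *Hcn2*, chr3:89150997-89151038 (minus) in *Hcn3* and chr9:58855567-58855608 (plus) in *Hcn4*.
Hcn2: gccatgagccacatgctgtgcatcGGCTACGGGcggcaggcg
Hcn3: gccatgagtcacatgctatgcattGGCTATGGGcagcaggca
Hcn4: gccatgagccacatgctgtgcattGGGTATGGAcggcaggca
Of these 42 bases, *Hcn2* and *Hcn4* shared 37, as did *Hcn3* and *Hcn4*, and *Hcn2* and *Hcn3* shared 36. The longest identical run between the coding regions of any of these pairs was 33 bases (*Hcn2* and *Hcn3*). That is shorter than the read length of 75 bases, and no window of 75 bases in the longest coding transcript of *Hcn2* or *Hcn4* occurred in a transcript of another gene. In *Hcn3*, 637 of 3928 windows (16.2%) also lay in *Pklr*, the pyruvate kinase gene of liver and red cells, which overlaps it on the opposite strand. *Shox2* shared 79 of 3005 windows (2.63%) with *Rsrc1* and *Tbx3* shared 42 of 4908 (0.856%) with the antisense gene *Tbx3os1*. The sources used here do not say whether reads were counted by strand, so reads from these overlaps cannot be assigned to 1 gene.

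In *Dio3*+/+ hearts the 6 genes had very different levels. *Tbx3* had the highest mean, 10.61 RPKM, followed by *Hcn4* with 9.74, *Shox2* with 6.12, *Isl1* with 1.31, *Hcn3* with 0.32 and *Hcn2* with 0.28 RPKM. *Hcn4* was above 73.1% of all gene symbols and *Hcn2* above 35.8%. By the limits for single hearts, *Shox2* was above *Isl1*, and *Isl1* above *Hcn3*, in every *Dio3*+/+ heart. In contrast, *Hcn4* and *Shox2*, and *Hcn3* and *Hcn2*, could not be put in order. *Tbx3*, whose limits ran from 0 to 22.95 RPKM, could not be ordered against any of the others. In *Dio3*-/- hearts the order was *Hcn4* (11.44 RPKM), *Tbx3* (7.53), *Shox2* (6.68), *Isl1* (1.39), *Hcn2* (0.44) and *Hcn3* (0.21). There, *Tbx3* could not be ordered against *Shox2*, nor *Hcn2* against *Hcn3*. In a whole heart the node is a small share of the tissue, and fewer cells of a type cannot be told apart from less RNA per cell.

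**Figure D1:**
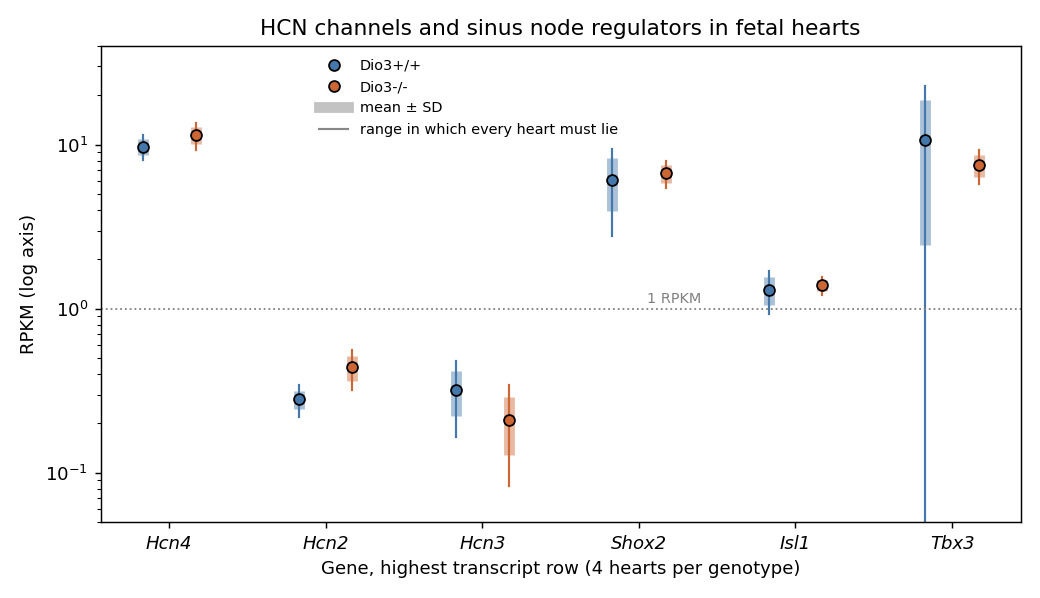
Mean RPKM (log axis) of each gene in 4 *Dio3*+/+ (blue) and 4 *Dio3*-/- (orange) hearts, with the SD as a thick bar and, as a thin line, the range in which every single heart must lie. The ranges of the genotypes overlap for each of the 6 genes, and the *Dio3*+/+ line of *Tbx3* reaches 0, below the axis.

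No difference between genotypes was called in these genes. Of the 6, *Hcn4*, *Shox2*, *Isl1* and *Tbx3* were above 1 RPKM in at least 1 genotype, the limit for testing, and *Hcn2* and *Hcn3* were below it. By limma, 0 of the 4 tested genes and 0 of their 9 rows passed the adjusted threshold of 0.05, where 2.29% of the 14657 tested genes and 2.15% of the 32703 tested rows passed (1.88% of rows higher in *Dio3*-/- hearts and 0.266% lower). By limma, 1 of the 9 rows had an unadjusted *P* value under 0.05, that of *Hcn4*, against 18.8% of all tested rows. Welch's test gave 0 rows with an adjusted or an unadjusted *P* value under it. The median log2 difference of the 4 tested genes was 0.09, against 0.04 over all 14657 tested genes. All log2 differences are *Dio3*-/- minus *Dio3*+/+ on the scale of log2(RPKM + 0.5), a scale that makes the change of a low gene look smaller than its ratio of means. They were taken between the logs of the genotype means, not between means of single-heart logs. A wide spread in 1 genotype can therefore move them. By the limits for single hearts, the genotypes could overlap in each of the 6 genes, of which *Hcn2* and *Hcn3* were not tested. Over all tested genes they could not overlap in 3.86% (3.4% with *Dio3*-/- higher). At so small a share, 0 of 6 does not set these genes apart.

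*Hcn4* had a mean of 9.74 RPKM (CV 0.11) in *Dio3*+/+ and 11.44 RPKM (CV 0.12) in *Dio3*-/- hearts. Single hearts lay between 8.06 and 11.4 RPKM and between 9.29 and 13.6 RPKM, so that a *Dio3*+/+ heart could be above a *Dio3*-/- heart. The ratio of the means was 1.17, with a log2 difference of 0.22 (standard error 0.10, 95% interval 0.0019 to 0.44, unadjusted *P* = 0.0484 and adjusted *P* = 0.263 by limma). The difference was thus close to the threshold before adjustment and was not called after it. With the printed values taken as exact, leaving out any 1 heart could place the log2 difference between 0.14 and 0.30, always above 0.

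*Hcn2* was low in both genotypes, with 0.28 RPKM (CV 0.13) in *Dio3*+/+ and 0.44 RPKM (CV 0.17) in *Dio3*-/- hearts, a ratio of 1.57. No *Dio3*+/+ heart could be above 0.343 RPKM and no *Dio3*-/- heart below 0.321 RPKM, which leaves a narrow range for an overlap. The gene was under the limit for testing. Among all rows above 0, its log2 difference was 0.27 (standard error 0.07, 95% interval 0.11 to 0.43), with an unadjusted *P* value of 0.00437 and an adjusted *P* value of 0.118 by limma. It was the lowest adjusted *P* value among the 6 genes in that fit, and it was not under 0.05.

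*Hcn3* went the other way in its means, with 0.32 RPKM (CV 0.31) in *Dio3*+/+ and 0.21 RPKM (CV 0.39) in *Dio3*-/- hearts, a ratio of 0.656. Relative to its mean it had the widest spread of *Hcn2*, *Hcn3* and *Hcn4* (the highest CV in both genotypes), with hearts from 0.166 to 0.479 RPKM at the widest in *Dio3*+/+ and from 0.0835 to 0.342 RPKM in *Dio3*-/-. In the fit without a limit on low values its log2 difference was −0.21 (95% interval −0.45 to 0.04, adjusted *P* = 0.428 by limma). *Pklr*, which shares reads with *Hcn3*, had 1.79 RPKM (CV 0.46) in *Dio3*+/+ and 2.59 RPKM (CV 0.88) in *Dio3*-/- hearts. Its mean was several times that of *Hcn3* in both genotypes, and its part in the *Hcn3* row was not tested.

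*Hcn4* exceeded the other two channel genes many-fold in both genotypes. Its mean was 34.8-fold that of *Hcn2* in *Dio3*+/+ and 26-fold in *Dio3*-/- hearts, and 30.4-fold and 54.5-fold that of *Hcn3*. These ratios come from genotype means per length of transcript and have no error. Whether *Hcn2*, *Hcn3* and *Hcn4* differed from each other in their response was not tested, since values of single hearts are needed for it. For scale, *Hr*, a gene known to be induced by thyroid hormone and about as low as *Hcn2* in *Dio3*+/+ hearts, had 0.33 and 1.23 RPKM, a log2 difference of 1.06 (standard error 0.13, adjusted *P* = 0.00561 by limma and 0.0698 by Welch's test). It was above 1 RPKM in *Dio3*-/- hearts alone and entered the test through that genotype.

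**Figure D2:**
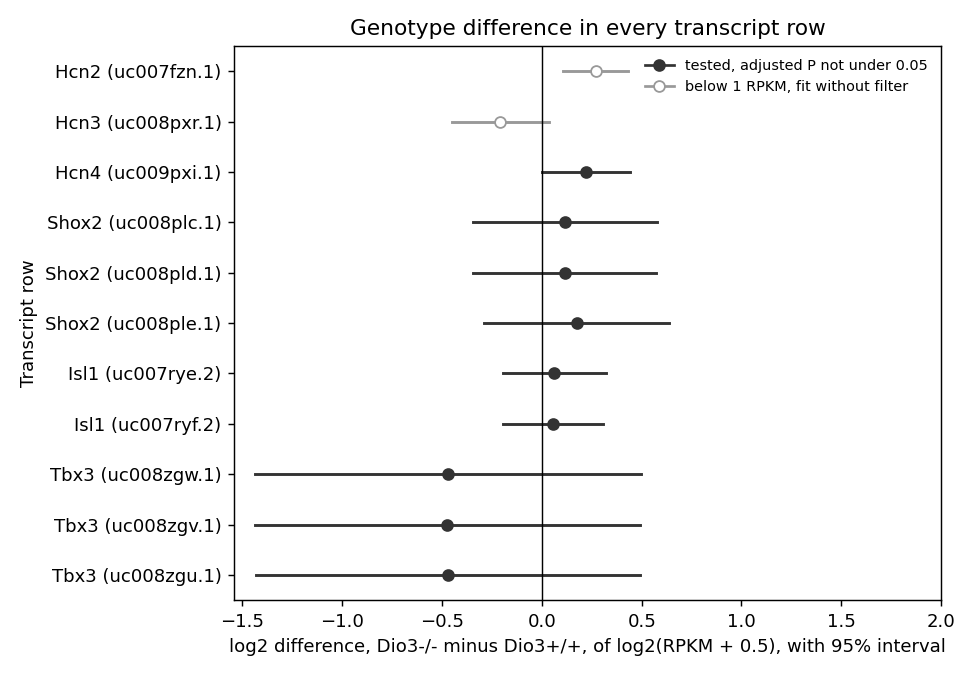
Log2 difference between genotypes (horizontal axis, *Dio3*-/- minus *Dio3*+/+ on the log2(RPKM + 0.5) scale) with its 95% interval for every transcript row of the 6 genes. *Hcn2* and *Hcn3* (open points) come from the fit without a limit on low values, and the rows of *Tbx3* have the widest intervals.

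The sequence before the start of *Hcn2* is shown beside that of *Hcn4* for the hexamer AGGTCA, the unit from which thyroid hormone receptor sites are built. RefSeq (GRCm38.p6) gave the 250 bases before the start for 4 of the 6 genes (*Hcn2*, *Hcn4*, *Isl1* and *Shox2*). Capitals mark AGGTCA on either strand (TGACCT when it is on the other strand). The *Hcn2* window is chr10:79716384-79716633 and the *Hcn4* window chr9:58822699-58822948, both on the plus strand.
Hcn2: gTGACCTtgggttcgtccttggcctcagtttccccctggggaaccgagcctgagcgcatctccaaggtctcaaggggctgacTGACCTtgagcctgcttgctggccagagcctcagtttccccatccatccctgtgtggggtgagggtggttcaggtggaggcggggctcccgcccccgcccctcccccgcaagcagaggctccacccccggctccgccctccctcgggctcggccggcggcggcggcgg
Hcn4: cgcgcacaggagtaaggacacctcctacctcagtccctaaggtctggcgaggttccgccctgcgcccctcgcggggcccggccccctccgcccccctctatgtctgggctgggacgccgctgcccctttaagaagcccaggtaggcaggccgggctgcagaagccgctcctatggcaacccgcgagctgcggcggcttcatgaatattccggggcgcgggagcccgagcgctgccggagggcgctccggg
The *Hcn2* window held 2 copies and the windows of *Hcn4*, *Isl1* and *Shox2* held 0. At least 1 copy was present in 14.0% of the 32851 windows of this length in the table and at least 2 in 1.36%. AGGTCA followed by any 4 bases and a further AGGTCA on the same strand was in none of the 4 windows and in 0.0152% of all. These are matches of letters, and no binding was measured.

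Both homeodomain genes differed by less than their spread. *Shox2* had 6.12 RPKM (CV 0.36) in *Dio3*+/+ and 6.68 RPKM (CV 0.12) in *Dio3*-/- hearts in its highest row. The *Dio3*+/+ hearts spanned more: at least 1 was at 7.20 RPKM or above and at least 1 at 5.04 RPKM or below. Its log2 difference was 0.12 (95% interval −0.35 to 0.58, adjusted *P* = 0.813 by limma), an interval that holds both decreases and increases. The other rows of *Shox2* had lower means, 5.37 and 3.38 RPKM in *Dio3*+/+ and 5.86 and 3.88 RPKM in *Dio3*-/- hearts, with log2 differences of 0.12 and 0.17. *Rsrc1*, which overlaps *Shox2*, had 9.97 and 10.39 RPKM.

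*Isl1* had 1.31 RPKM (CV 0.19) in *Dio3*+/+ and 1.39 RPKM (CV 0.08) in *Dio3*-/- hearts. Single hearts lay between 0.923 and 1.7 RPKM and between 1.21 and 1.57 RPKM, so the *Dio3*-/- range fell inside the *Dio3*+/+ range. The log2 difference was 0.06 (95% interval −0.20 to 0.32, adjusted *P* = 0.823 by limma), and the other row, with 1.29 and 1.36 RPKM, gave the same value to 0.01. *Isl1* also marks cardiac neurons and progenitors of the outflow tract. Of 9 neuron genes, 5 were below 1 RPKM in both genotypes, among them *Phox2a* (0.14 and 0.13 RPKM), *Th* (0.12 and 0.13 RPKM) and *Prph* (0.11 and 0.24 RPKM), while *Gap43*, a gene of growing nerve fibres, had 11.46 and 10.96 RPKM. Of the 4 tested, 1 passed by limma, against 2.29% of all tested genes. This was *Tubb3*, a neuronal tubulin, with a log2 difference of 0.65 and an adjusted *P* value of 0.00856 by limma and 0.0698 by Welch's test. The summed level of the 9 was 16.7 and 17.8 RPKM.

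*Tbx3* stood out by its spread. Its highest row had 10.61 RPKM with a CV of 0.77 in *Dio3*+/+ and 7.53 RPKM with a CV of 0.15 in *Dio3*-/- hearts. At least 1 *Dio3*+/+ heart was at 14.7 RPKM or more, above the 9.29 RPKM that no *Dio3*-/- heart could exceed, and at least 1 was at 6.56 RPKM or less. Of the 14657 tested genes, 202 (1.38%) had a CV of 0.77 or more in *Dio3*+/+ hearts. The log2 difference was −0.47 with a standard error of 0.43 (95% interval −1.43 to 0.50, adjusted *P* = 0.613 by limma), so no difference was detectable over this spread. Without 1 heart, and with the printed values taken as exact, the *Dio3*+/+ mean could be anywhere from 6.53 to 14.7 RPKM, which includes values below the *Dio3*-/- mean. The direction of the *Tbx3* difference can therefore rest on 1 heart. The other rows of *Tbx3* (10.28 and 9.99 RPKM in *Dio3*+/+, 7.27 and 7.07 RPKM in *Dio3*-/-) had the same CVs, and rows of a gene share reads.

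Other genes also had a wide spread over the *Dio3*+/+ hearts. Among the conduction genes, *Tbx2*, a T-box repressor of the atrioventricular canal, had a CV of 0.60 in *Dio3*+/+ and 0.42 in *Dio3*-/- hearts, and *Cacna1g*, a T-type calcium channel gene, had 0.74 and 0.05. These 2 were singled out after their values were seen. Among 6 genes of the second heart field and the pharyngeal region, 3 had a CV above 0.8 in *Dio3*+/+ hearts. They were *Six2* (1.04), *Tbx1* (0.86) and *Fgf10* (0.83), with CVs of 0.23, 0.81 and 0.38 in *Dio3*-/- hearts. Of these 3, *Tbx1* (0.77 and 0.42 RPKM) was under the limit for testing and *Fgf10* (1.21 and 0.64 RPKM) was close to it. The others were less spread in *Dio3*+/+ hearts, with CVs of 0.07 for *Osr1*, 0.08 for *Foxc2* and 0.40 for *Fgf8*. *Osr1* (13.69 and 13.82 RPKM) and *Foxc2* (10.12 and 11.13 RPKM) had the highest means of the 6. The mean of *Six2* was 2.5 RPKM over the *Dio3*+/+ hearts and 0.97 RPKM over the *Dio3*-/- hearts (log2 difference −1.03, standard error 0.51, adjusted *P* = 0.319 by limma). The summed level of the 6 was 28.4 and 27.1 RPKM. Whether the heart with high *Tbx3* is the heart with high *Six2* cannot be read from genotype means, and the part of such tissue in the *Tbx3* value was not tested.

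**Figure D3:**
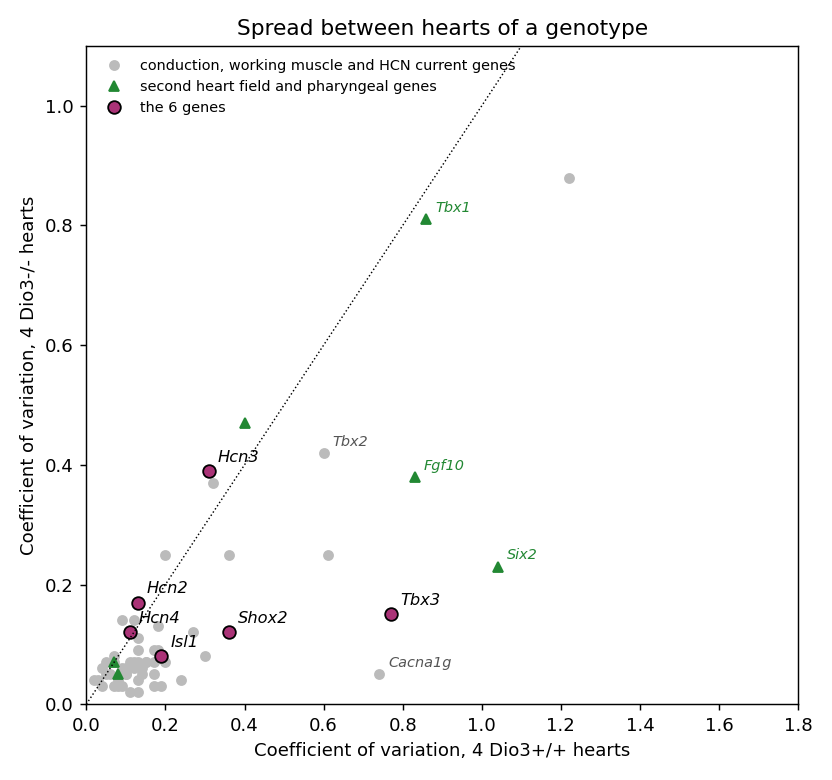
CV over 4 *Dio3*+/+ hearts (horizontal) against CV over 4 *Dio3*-/- hearts (vertical), each point a gene, with equal spread on the dotted line. *Tbx3* (0.77 and 0.15) lies far to the right with *Cacna1g*, *Six2* and *Fgf10*, whereas *Hcn2*, *Hcn3* and *Hcn4* lie near the line.

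Among the genes of the sinus node and conduction system described here, 28 were tested. Their log2 differences had a median of 0.02, against 0.04 over all tested genes, and 14 of the 28 were above 0, against 63.3% of all tested genes. Over all tested genes 1.91% passed with a higher level in *Dio3*-/- hearts and 0.382% with a lower one. *Popdc2*, which encodes a cAMP-binding protein, had the smallest *P* value of the 28. It had 95.02 and 127.7 RPKM and was just outside the threshold (log2 difference 0.42, adjusted *P* = 0.062 by limma). It was at 0.0493 by limma when genes needed a mean above 5 RPKM, and at 0.0439 without rows with a CV above 0.5. Without a filter it was at 0.0981 by limma, and by Welch's test at 0.230. *Cacna1h*, a T-type calcium channel gene, had 18.63 and 20.71 RPKM (log2 difference 0.15, adjusted *P* = 0.124 by limma). *Tbx18*, a T-box factor of the sinus horns, had 20.11 and 19.67 RPKM.

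Genes that mark working muscle, several of which *Tbx3* and *Shox2* are known to hold down in the node, are described for 9. The median log2 difference of the 9 was 0.20, against 0.04 over all tested genes, and 8 were above 0, as were 63.3% of all tested genes. The smallest *P* values were those of *Tbx20*, a T-box factor of heart muscle (158.1 and 200.6 RPKM, log2 difference 0.34, adjusted *P* = 0.125 by limma), and *Gja1*, the connexin 43 gene (125.8 and 147.3 RPKM, log2 difference 0.23, adjusted *P* = 0.144 by limma). Atrial muscle genes (median 0.07 over 8) and ventricular muscle genes (0.13 over 6) had 0 genes that passed by limma or Welch's test. By limma, 2.29% of all tested genes passed. Under an unadjusted 0.05 by limma were 3 atrial genes and 1 ventricular gene, against 18.8% of all tested rows. The 6 general heart muscle genes described below had a median of 0.24, with 6 above 0. The part of *Tbx3* and *Shox2* in the working muscle values was not tested.

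Genes that act on the HCN current were a list of 15, of which 11 were tested and 2 passed by limma (0 by Welch's test), where 2.29% of all tested genes passed by limma. Both encode receptors that set cAMP and both were higher in *Dio3*-/- hearts. *Chrm2*, the muscarinic receptor through which the vagus slows the node, had 5.89 RPKM (CV 0.12) and 8.43 RPKM (CV 0.06), a log2 difference of 0.48 with a standard error of 0.08. The adjusted *P* value was 0.0231 by limma and 0.155 by Welch's test. *Adrb1*, the β1-adrenergic receptor that speeds it, had 3.11 RPKM (CV 0.18) and 4.88 RPKM (CV 0.09), a log2 difference of 0.58 with a standard error of 0.11. The adjusted *P* value was 0.0376 by limma and 0.177 by Welch's test. With both genotypes centred on the median of all rows, *Adrb1* was at an adjusted *P* value of 0.06 by limma, and without a filter on low values at 0.0713, and it passed in neither. The median of the 11 was 0.05. *Pex5l* and *Kcne2*, which encode partners of HCN channels, were below 1 RPKM in both genotypes.

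**Figure D4:**
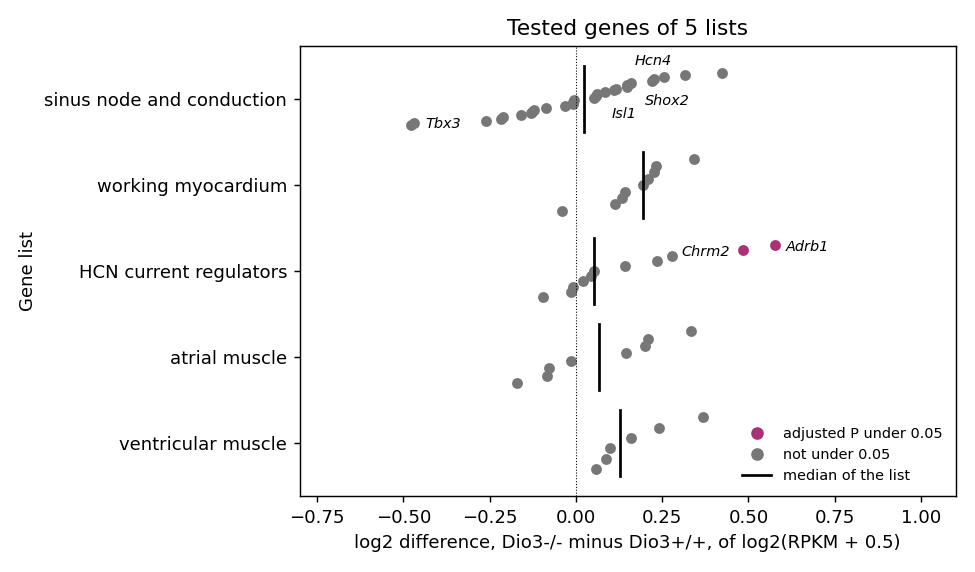
Log2 difference between genotypes (*Dio3*-/- minus *Dio3*+/+, horizontal axis) of each tested gene described in 5 lists (vertical), with the median of each list as a black bar. *Adrb1* and *Chrm2* (magenta) passed the test, while *Hcn4*, *Shox2* and *Isl1* lie among the other genes of their list. *Tbx3* (−0.47) lies at the low end of that list with *Cacna1g* (−0.48).

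Several facts of the libraries stand beside these values. *Dio3* itself was low, with 0.35 RPKM (CV 1.23) and 0.13 RPKM (CV 0.76), and was not used to check the genotypes. The thyroid hormone response gene *Klf9* rose 4.56-fold (adjusted *P* = 5.74e-06 by limma). Genes of heart muscle were high in both genotypes (6 genes, summed 6842 and 8349 RPKM). Of these 6, 2 passed as higher in *Dio3*-/- hearts by limma and 0 by Welch's test, against 1.91% of all tested genes by limma. Under an unadjusted 0.05 by limma were 5 of the 6, against 18.8% of all tested rows. Among those that passed was *Myh6*, the atrial myosin heavy chain gene (log2 difference 1.06, adjusted *P* = 0.00125 by limma). The 5 red cell genes in the table had lower means in *Dio3*-/- hearts (summed 39540 and 13680 RPKM). Of them, *Hbb-bh1*, an embryonic globin gene, passed, with an adjusted *P* value of 0.0468 by limma, but not without a filter (0.0824 by limma) or by Welch's test (0.197), against 0.382% of all tested genes that passed as lower by limma. The 8 liver genes had higher means in *Dio3*-/- hearts (summed 22.9 and 122.6 RPKM). Of them, 0 passed by limma or Welch's test, against 1.91% of all tested genes that passed as higher by limma. All 8 were under an unadjusted 0.05 by limma, against 18.8% of all tested rows. Liver genes also differed widely between hearts of a genotype, with CVs of 0.18 to 1.41 in *Dio3*+/+ and 0.68 to 1.26 in *Dio3*-/- hearts. Of 7 genes of lung and foregut, *Nkx2-1* alone was tested (8.18 and 8.35 RPKM), *Sftpc* was listed at 0 in *Dio3*+/+ hearts, and the sum was 10.2 and 11.2 RPKM. The hearts are described as male, but *Xist*, which marks female cells, had 35.64 RPKM (CV 0.99) and 39.97 RPKM (CV 0.55), and the Y-linked gene *Eif2s3y* had 9.38 RPKM (CV 1.04) and 7.29 RPKM (CV 1.46). The part of these in the results above was not tested.

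The age field bears on *Dio3*-/- hearts 3 and 4, and the CVs limit how far they can be from hearts 1 and 2. With the printed means and CVs taken as exact, the mean of 1 pair could exceed that of the other at most 1.23-fold for *Hcn4* and *Shox2*, 1.15-fold for *Isl1*, 1.3-fold for *Tbx3*, 1.34-fold for *Hcn2* and 2.02-fold for *Hcn3*. The mean of *Hcn4* in *Dio3*-/- hearts 1 and 2 alone therefore lay between 10.25 and 12.63 RPKM, above the *Dio3*+/+ mean of 9.74 RPKM. For *Shox2* and *Isl1* the lower limits, 5.99 and 1.29 RPKM, fell below the *Dio3*+/+ means.

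The genes nearest to each tested gene in level were found by the distance between log2(RPKM + 0.5) values over the 2 genotype means. They were *Pde4b* for *Hcn4* (distance 0.0074), *Nmnat1* for *Shox2* (0.0059) and *Slc6a13* for *Isl1* (0). Within a distance of 0.1 lay 126 genes for *Hcn4*, 257 for *Shox2* and 134 for *Isl1*, against 4 for *Tbx3*, whose nearest were *Bin1* (0.037) and *Tnni2* (0.061), the fast skeletal troponin I gene. *Bin1* had 10.89 RPKM with a CV of 0.71 in *Dio3*+/+ and 7.49 RPKM with a CV of 0.11 in *Dio3*-/- hearts, and *Tnni2* had 11.09 RPKM (CV 0.09) and 7.55 RPKM (CV 0.10). With 2 points per gene, this likeness is one of level and ratio alone.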

How the data were processed

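RNA was sequenced after removal of ribosomal RNA. Per the labels and the methods, reads were checked with FastQC and aligned with NovoAlign (version 2.08), uniquely mapping reads were kept, and read numbers were brought down in proportion to those of the smallest library. The build of the genome is not given in the sources used here. The authors deposited a mean per genotype, read here as RPKM because the methods filter on that unit, and a CV, a ratio of SD to mean, both rounded to 2 decimals. Their fold changes and *q* values were not used. The methods give a range of aligned reads over the samples and an average of mapped reads. Read totals of single hearts are not given, so the depth and precision of each heart are unknown.

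The SD of log2(RPKM + 0.5) was approximated from the mean and CV. The pooled variance of 4 against 4 hearts had 6 residual degrees of freedom and was shrunk towards a mean-variance trend (3.52 prior degrees of freedom) by limma (3.58.1, under R 4.3.3). Benjamini-Hochberg adjustment covered the 32703 rows above 1 RPKM in at least 1 genotype. The threshold was 0.05. The calculation was tested on simulated data. List genes were read from their highest row. A design that named single hearts could not be run. The largest CV in the table is 2, which 4 values give when 1 holds all the signal and the SD uses n − 1, so the limits for single hearts use that SD and allow for rounding. Limits for pairs of hearts and for leaving out 1 heart take the printed values as exact. Sequences came from GENCODE M21 and RefSeq. Python (3.11.15), pandas (2.3.3), scipy (1.17.1) and matplotlib (3.10.9) were used.

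The 6 genes and the gene lists were chosen with earlier results of these data known. Some genes are not reported here and were left out of the lists, so counts for a list, also those under the alternatives, cover its other genes and not the whole list. They stayed in the fit over all rows. Genes named were the 6, *Dio3*, thyroid hormone response genes, list genes that passed or, where none of those described did, those with the smallest *P* values, and the nearest genes in level. The others were named after their values were seen. Alternatives were other pseudocounts (0.1 and 1), no filter, a mean above 5 RPKM, no trend, 1 row per gene, Welch's test, centring, a CV raised by 0.005 and no rows with a CV above 0.5. The limits for leaving out hearts were added after the data were seen.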

Additional observations from a re-analysis of the deposited data

How the results depend on the processing

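The 4 tested genes kept their direction and stayed outside the threshold in every alternative that tests them, with adjusted *P* values by limma or Welch's test from 0.225 to 0.417 for *Hcn4*, 0.796 to 0.897 for *Shox2*, 0.785 to 0.950 for *Isl1* and 0.578 to 0.743 for *Tbx3*. With the printed values taken as exact, leaving out 1 heart could place the log2 difference from 0.14 to 0.30 for *Hcn4*, 0.21 to 0.33 for *Hcn2*, −0.29 to −0.12 for *Hcn3*, −0.10 to 0.38 for *Shox2*, −0.034 to 0.17 for *Isl1* and −0.92 to 0.19 for *Tbx3*, so the last 3 could change sign. With *Dio3*-/- hearts 1 and 2 alone the lowest limit was −0.030 for *Shox2* and −0.013 for *Isl1*. The 703 called rows (616 higher, 87 lower) became 431 without a filter, 319 with 1 row per gene (of 14657 tested, in place of 32703), 69 with Welch's test (69 higher), 394 with centring (314 higher, 80 lower, after a shift of 0.04) and 414 with raised CVs, but 811 above 5 RPKM and 1052 (889 higher, 163 lower) without rows with a CV above 0.5. Of the conduction genes described, 1 (*Popdc2*) was called above 5 RPKM and 1 (*Popdc2*) without rows with a CV above 0.5, against 0. Of the genes acting on the HCN current, 1 (*Chrm2*) was called without a filter, 1 (*Chrm2*) above 5 RPKM, 1 (*Chrm2*) with centring and 0 with Welch's test, against 2. The causes were not tested. Refits without a heart were not run, because the table has no value for single hearts. No paired analysis was possible because the columns carry no replicate numbers. The depth of each single heart is unknown, and *Hcn2* and *Hcn3*, below 1 RPKM, are the values most exposed to rounding.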
